A study of Rattus norvegicus with 4 samples.

Results

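Solute carriers are membrane proteins that move amino acids, sugars, ions, metals, nucleotides and vitamins across the plasma membrane and organelle membranes without splitting ATP. Their gene symbols begin with Slc and a family number. The genes described here had exactly 1 annotated symbol of that form on the array, apart from Slc2a1, Slc16a1 and Slc7a11. Each gene was read by its brightest probe set, judged by the mean over the 4 arrays, and was kept if it exceeded a signal of 200 on at least 1 of them. Of 295 solute carrier genes on the array, 3 were excepted by name and 143 stayed at or under 200, which left 149 genes of 46 families among 14218 named genes. Their array identifiers all matched current rat genes. The genes were thus selected on signal, and a gene above 200 on 1 array alone had to differ between arrays: 103 genes were above 200 on all 4 arrays, 12 on 3, 18 on 2 and 16 on 1. Of those 16, 8 were above 200 on FOXOA3 FSH, 5 on FOXOA3-mDBD FSH, 1 on GFP FSH and 2 on GFP vehicle. Just inside the limit, Slc46a3 reached 210.5 and Slc25a38 reached 212.1, and just outside it Slc27a3 reached 198.3 and Slc13a1 reached 191.9. Slc4a1ap and Slc7a6os are named after transporter genes but are not known as transporters, and they stay in the count of 149.

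The RNA came from granulosa cells, the somatic cells that surround the oocyte and make estradiol, taken from estradiol-treated female Sprague-Dawley rats aged 23 to 25 days and cultured without serum on serum-coated dishes. Adenovirus infection lasted 4 h, and a further 24 h followed in follicle-stimulating hormone (FSH, 100 ng/ml) or its vehicle. The groups were FOXOA3 FSH, whose virus carries FOXO1, a transcription factor, in a constitutively active version, FOXOA3-mDBD FSH, with its DNA-binding mutant, GFP FSH, with green fluorescent protein as control vector, and GFP vehicle, with the control vector and no FSH. All groups carried a virus, and each group had 1 array, so that no difference here has a replicate check and no p-value was computed. Whether several cultures or animals were pooled on an array is not given in the sources used here.

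Granulosa cells take up amino acids and glucose for themselves and for the oocyte, and during differentiation they turn cholesterol into steroids in mitochondria. In general, SLC7 light chains exchange amino acids in partnership with the heavy chain Slc3a2, SLC25 proteins carry metabolites across the inner mitochondrial membrane, SLC39 proteins bring zinc and related metals into the cytosol and SLC30 proteins move them out of it. FSH acts through cyclic AMP and protein kinase A, and FOXO1 is a transcription factor that insulin and growth factor signalling normally keeps out of the nucleus.

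The signals were MAS5 values with trimmed means of 500.1 to 500.2 on all arrays. Poly-A spike transcripts, added as a labelling control, had geometric means of 22.62 on FOXOA3 FSH, 539.4 on FOXOA3-mDBD FSH, 394.6 on GFP FSH and 21.42 on GFP vehicle. Like spike signals are therefore paired when FOXOA3-mDBD FSH is set against GFP FSH, and when FOXOA3 FSH is set against GFP vehicle, but not in the other 3 comparisons below. The 9 granulosa markers named on the array had summed signals of 55738 on FOXOA3 FSH, 46672 on FOXOA3-mDBD FSH, 127492 on GFP FSH and 47941.8 on GFP vehicle. Among them the ovarian factor Foxl2 had 4296.8, 994.1, 3536.3 and 5546.4 in that order of arrays. It was highest on GFP vehicle, whereas the sum was highest on GFP FSH. The 7 theca and stroma markers summed to 24116.8, 1393.7, 2101.2 and 16419.1 in that order of arrays, although the theca enzyme Cyp17a1 did not exceed 58.5 on any array. Different genes led these sums: Dcn (12504.1) and Col3a1 (7556.3) on FOXOA3 FSH, but Tagln (9167.1) and Acta2 (3710.6) on GFP vehicle, where Dcn had 624.1. Lum had 98.8 on FOXOA3 FSH, under the floor of 100.5 used below, and 215.8 on GFP FSH. Cyp17a1 was under that floor on both (11.2 and 58.5). Whether the sums follow 1 cell type was not tested. Among leukocyte markers, Ptprc, Cd68 and Cd3e did not exceed 89.5, while Cd14 lay between 726.7 and 2577.0 and Lyz2 between 376.1 and 1265.9. The endothelial markers Pecam1 and Vwf did not exceed 52.4, while Kdr reached 376.3 on GFP vehicle and Tek reached 212.3 on FOXOA3-mDBD FSH. The 5 leukocyte markers summed to 1440.6 to 4014.4, the 4 endothelial markers to 267.4 to 496.9 and the 4 oocyte markers to 439.1 to 1155.4. Fewer cells of a type and less RNA per cell cannot be told apart in such bulk samples.

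Ratios were taken after raising signals under 100.5, the median of all rat probe sets, to that floor. A fold is written "at least" where the dimmer of the signals did not exceed it. Genes at least 2-fold apart were counted as higher or lower, and the same count over the 9013 named genes above 200 on at least 1 array is given as background. The GFP FSH array enters 3 of the 5 comparisons, so that a high or low signal on it affects each of those.

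Promoter windows from RefSeq (build GRCr8) were matched to 123 of the 149 genes. A window runs from 250 bases before to 50 bases after the annotated start. The FOXO-binding letters GTAAACA, on either strand, occurred in 1 of the 123 windows (0.813%) and in 3.76% of 27457 promoters of all genes. The cyclic AMP response element TGACGTCA, which reads the same on both strands, occurred in 3 of the 123 (2.44%) and in 1.91% of all promoters, and no match of one overlapped a match of the other. The FOXO letters lay 6 bases past the start of Slc7a6, and the cyclic AMP letters lay before the starts of Slc25a25, Slc25a33 and Slc38a6. These matches describe letters in a short window, not bound sites. The upstream 250 bases are shown for 4 genes that the results below turn on: Slc43a2 and Slc31a2, the 2 genes with a window among the 3 largest FOXOA3 ratios, Slc25a28, the gene with a window and the largest FSH ratio, and Slc25a25, which holds the cyclic AMP letters (in capitals) starting 158 bases before its start.
Slc43a2, chr10:60874588-60874837, + strand: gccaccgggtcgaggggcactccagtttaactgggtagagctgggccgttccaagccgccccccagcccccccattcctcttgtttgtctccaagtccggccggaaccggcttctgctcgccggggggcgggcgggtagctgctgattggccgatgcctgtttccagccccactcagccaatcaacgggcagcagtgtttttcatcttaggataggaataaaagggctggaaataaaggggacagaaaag
Slc31a2, chr5:80753368-80753617, + strand: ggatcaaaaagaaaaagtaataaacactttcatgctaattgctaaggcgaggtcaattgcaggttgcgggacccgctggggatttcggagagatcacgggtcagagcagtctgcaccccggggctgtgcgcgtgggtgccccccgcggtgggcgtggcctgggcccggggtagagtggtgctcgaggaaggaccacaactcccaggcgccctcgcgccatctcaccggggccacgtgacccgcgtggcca
Slc25a28, chr1:252491343-252491592, - strand: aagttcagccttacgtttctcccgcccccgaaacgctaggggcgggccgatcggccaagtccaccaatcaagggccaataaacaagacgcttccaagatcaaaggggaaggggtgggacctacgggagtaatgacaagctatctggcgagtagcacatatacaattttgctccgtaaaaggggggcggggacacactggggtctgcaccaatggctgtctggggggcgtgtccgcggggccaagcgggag
Slc25a25, chr3:36116582-36116831, - strand: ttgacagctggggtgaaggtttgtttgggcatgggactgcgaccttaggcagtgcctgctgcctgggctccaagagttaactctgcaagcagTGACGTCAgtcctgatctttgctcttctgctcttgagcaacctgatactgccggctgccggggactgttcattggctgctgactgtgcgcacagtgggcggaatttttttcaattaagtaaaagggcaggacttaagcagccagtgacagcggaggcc
These windows were 60%, 63.2%, 58.8% and 54.4% G and C in that order. The 123 matched genes had a median of 62.8%, and all promoters had a median of 52%.

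The hormone response was read by setting GFP FSH against GFP vehicle. With FSH, mitochondrial carriers and carriers of vitamin C and magnesium were among the higher genes, and the iron exporter, the sodium-potassium-chloride cotransporter and sodium-calcium exchangers were among the lower. The actin 3'/5' signal ratio, a measure of RNA integrity, was 12 on GFP FSH and 5.15 on GFP vehicle, and its part in the ratios against GFP vehicle was not tested. In all, 12 of the 149 genes (8.05%) were at least 2-fold higher, beside 7.27% of all genes, and 15 (10.1%) were lower, beside 11.8% of all genes. The median log2 ratio was 0.00 for the solute carriers and 0.00 for all genes. Among the 103 genes above 200 on all 4 arrays, 9 (8.74%) were higher, beside 6.31% of all such genes, and 9 were lower, beside 8.06%. These shares lie near the background, so the hormone comparison is described below by its genes and not as a shift of the group. The solute carrier shares leave out Slc2a1, Slc16a1 and Slc7a11, which were 2.3-fold, 2.4-fold and 4.58-fold higher with FSH.

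**Figure D1:**
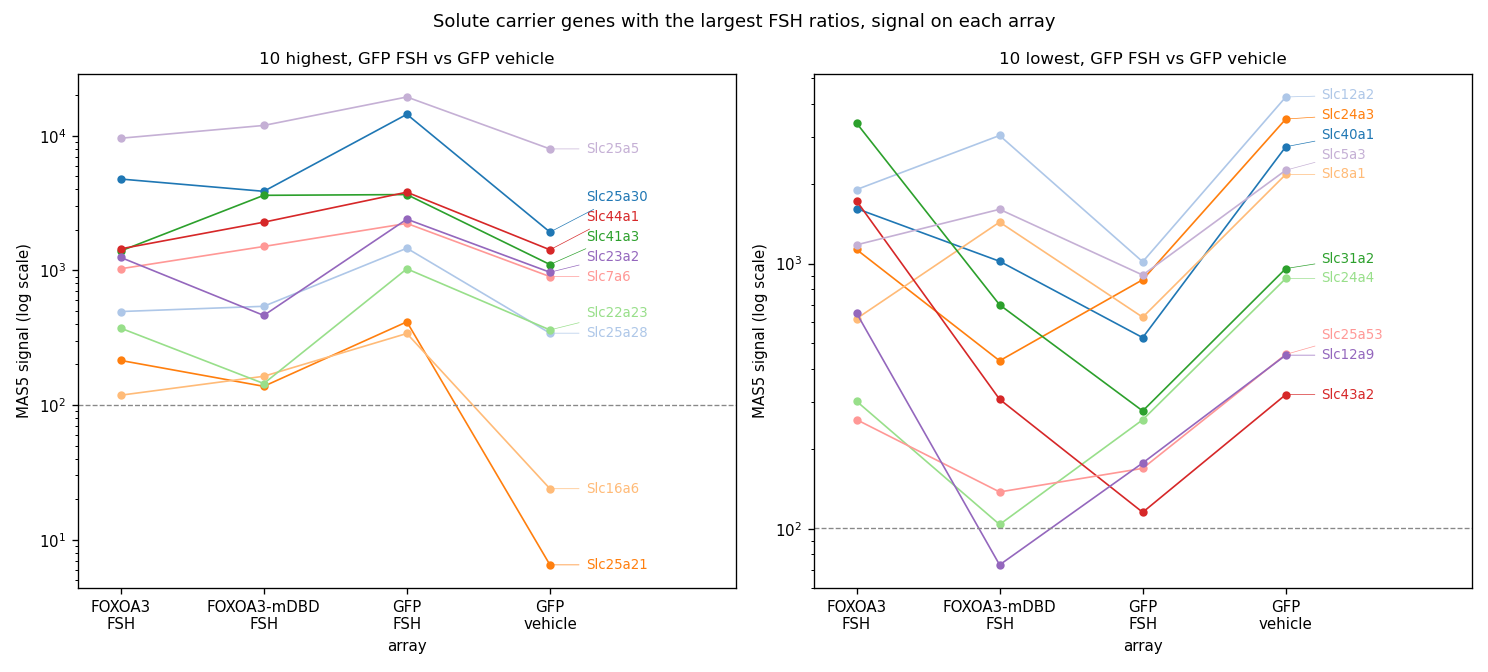
MAS5 signal (log axis) on each of the 4 arrays for the 10 solute carrier genes with the highest (left) and the 10 with the lowest (right) ratio of GFP FSH to GFP vehicle. Each point is 1 array and the dashed line is the floor of 100.5; Slc25a30 stands at 14423.8 on GFP FSH and 1924.8 on GFP vehicle, and levels of different genes cannot be compared.

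Slc25a30, a mitochondrial carrier first described in kidney, had the largest FSH ratio. Its signal was 4768.7 on FOXOA3 FSH, 3865.2 on FOXOA3-mDBD FSH, 14423.8 on GFP FSH and 1924.8 on GFP vehicle. GFP FSH was 7.49-fold above GFP vehicle, the FOXO1 vectors were 3.02-fold and 3.73-fold below GFP FSH, and GFP vehicle was the lowest array. A dimmer probe set of the same gene had 340.8, 288.3, 962.4 and 196.9 in that order of arrays, with the same order of GFP FSH highest and GFP vehicle lowest. Slc25a28, mitoferrin 2, which brings iron into mitochondria, had 494.7 on FOXOA3 FSH, 541.1 on FOXOA3-mDBD FSH, 1460.9 on GFP FSH and 341.8 on GFP vehicle. It was 4.27-fold higher with FSH, and the other 3 arrays lay together well below GFP FSH.

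Slc25a5, an exchanger of ADP and ATP, had 19396.5 on GFP FSH and 7982.0 on GFP vehicle, a 2.43-fold difference. The oxodicarboxylate carrier Slc25a21 had 414.9 on GFP FSH and 6.5 on GFP vehicle, at least 4.13-fold higher. Slc25a1, the citrate carrier whose export of citrate feeds cytosolic lipid synthesis, had 4266.5 on FOXOA3 FSH, 2176.7 on FOXOA3-mDBD FSH, 7725.9 on GFP FSH and 3741.2 on GFP vehicle. It was 2.07-fold higher with FSH and 3.55-fold lower with FOXOA3-mDBD than with GFP FSH. Of the 30 SLC25 genes, classed as mitochondrial carriers by family number alone, 5 were higher with FSH and 3 lower. Their median log2 ratio was 0.39, beside 0.00 for all genes. After quantile normalization the median was 0.25, beside 0.03, and Slc25a5 and Slc25a1 had log2 ratios of 0.90 and 0.87, under 2-fold. The lower ones were Slc25a53 at 2.69-fold, Slc25a44, a carrier of branched-chain amino acids, at 2.23-fold, and the calcium-regulated ATP-Mg carrier Slc25a23 at 2.21-fold. The phosphate carrier Slc25a3, at 16427.2 on GFP FSH and 10759.8 on GFP vehicle, and Slc25a4, another exchanger of ADP and ATP, at 10247.1 and 7222.7 on the same arrays, stayed within 2-fold.

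Outside mitochondria, the magnesium transporter family gene Slc41a3 had 3656.0 on GFP FSH and 1105.3 on GFP vehicle, 3.31-fold higher. Slc44a1, a choline transporter, had 3808.2 on GFP FSH and 1421.9 on GFP vehicle by its brightest probe set, 2.68-fold higher. Its 2 other probe sets differed from this, with 736.7 on GFP FSH and 865.7 on GFP vehicle, and with 1182.8 and 893.9 on the same arrays. Slc23a2, which takes up ascorbate, had 1248.7 on FOXOA3 FSH, 462.9 on FOXOA3-mDBD FSH, 2400.3 on GFP FSH and 968.5 on GFP vehicle, with GFP FSH highest and FOXOA3-mDBD FSH lowest. It was 2.48-fold higher with FSH. Slc16a6 of the monocarboxylate family had 339.9 on GFP FSH and 23.9 on GFP vehicle, at least 3.38-fold higher, and the SLC22 family gene Slc22a23 had 1027.0 and 361.2 on the same arrays, 2.84-fold higher. The exchanger light chain Slc7a6 was 2.48-fold higher with FSH, and the taurine transporter Slc6a6 was 2.07-fold higher.

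Among the lower genes, Slc40a1 is ferroportin, the exporter of iron from cells. It had 1613.5 on FOXOA3 FSH, 1020.7 on FOXOA3-mDBD FSH, 526.0 on GFP FSH and 2760.4 on GFP vehicle, so that GFP FSH was the lowest array and 5.25-fold below GFP vehicle. Another probe set of Slc40a1 had 1600.1, 1291.4, 511.3 and 2005.1 in that order of arrays, again lowest on GFP FSH. Tfrc, the transferrin receptor that brings iron into cells and is no solute carrier, had 9417.9 on GFP FSH and 2797.4 on GFP vehicle, 3.37-fold higher. Slc12a2, a sodium-potassium-chloride cotransporter, had 1902.5 on FOXOA3 FSH, 3043.4 on FOXOA3-mDBD FSH, 1016.5 on GFP FSH and 4251.6 on GFP vehicle, which is 4.18-fold lower with FSH.

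Among the sodium-calcium exchangers, Slc24a3, Slc8a1 and Slc24a4 were lower with FSH, and Slc24a2 was under the floor on both GFP arrays. Slc24a3 had 869.7 on GFP FSH and 3510.7 on GFP vehicle (4.04-fold lower), Slc8a1 had 628.0 and 2171.0 (3.46-fold lower), and Slc24a4 had 257.7 and 879.3 (3.41-fold lower) on the same arrays. Slc8b1, the exchanger of the inner mitochondrial membrane, was at least 2.21-fold lower. Of the 16 carriers of bicarbonate, protons, sodium, calcium, chloride and sulfate, 6 were lower with FSH and 0 higher, with a median of -0.44 beside 0.00 for all genes. Of the 9 above 200 on all 4 arrays, 3 were lower. Slc5a3, a sodium-coupled transporter of myo-inositol, had 905.7 on GFP FSH and 2251.8 on GFP vehicle, 2.49-fold lower. The theca and stroma markers also had a lower summed signal on GFP FSH, 2101.2, than on GFP vehicle, 16419.1, and their part in these ratios was not tested. By their brightest probe sets, none of the 20 nucleoside and nucleotide sugar carriers reached 2-fold in either direction. Another probe set of Slc35b1 did, with 1354.9 on GFP FSH and 599.8 on GFP vehicle (log2 ratio of 1.18). Another of Slc29a3 had 327.3 and 663.8 on the same arrays (-1.02).

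The effect of active FOXO1 in the presence of FSH was read from FOXOA3 FSH and GFP FSH. Amino acid transporters of the SLC6, SLC7 and SLC43 families, the copper transporter Slc31a2 and the inositol transporter Slc2a13 were the leading higher genes, and the mitochondrial carriers Slc25a30, Slc25a28, Slc25a10 and Slc25a5 were among the 10 lower ones. Of the 149 genes, 26 (17.4%) were at least 2-fold higher, beside 12.3% of all genes, and 10 (6.71%) were lower, beside 7.71%. The median log2 ratio was 0.01, and 0.00 for all genes. Among the 103 genes above 200 on all 4 arrays, 9 were higher (8.74%) beside 7.81% of all genes above 200 on all 4 arrays, and 7 were lower beside 6.87%, so that 17 of the 26 higher genes were at or under 200 on at least 1 array.

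**Figure D2:**
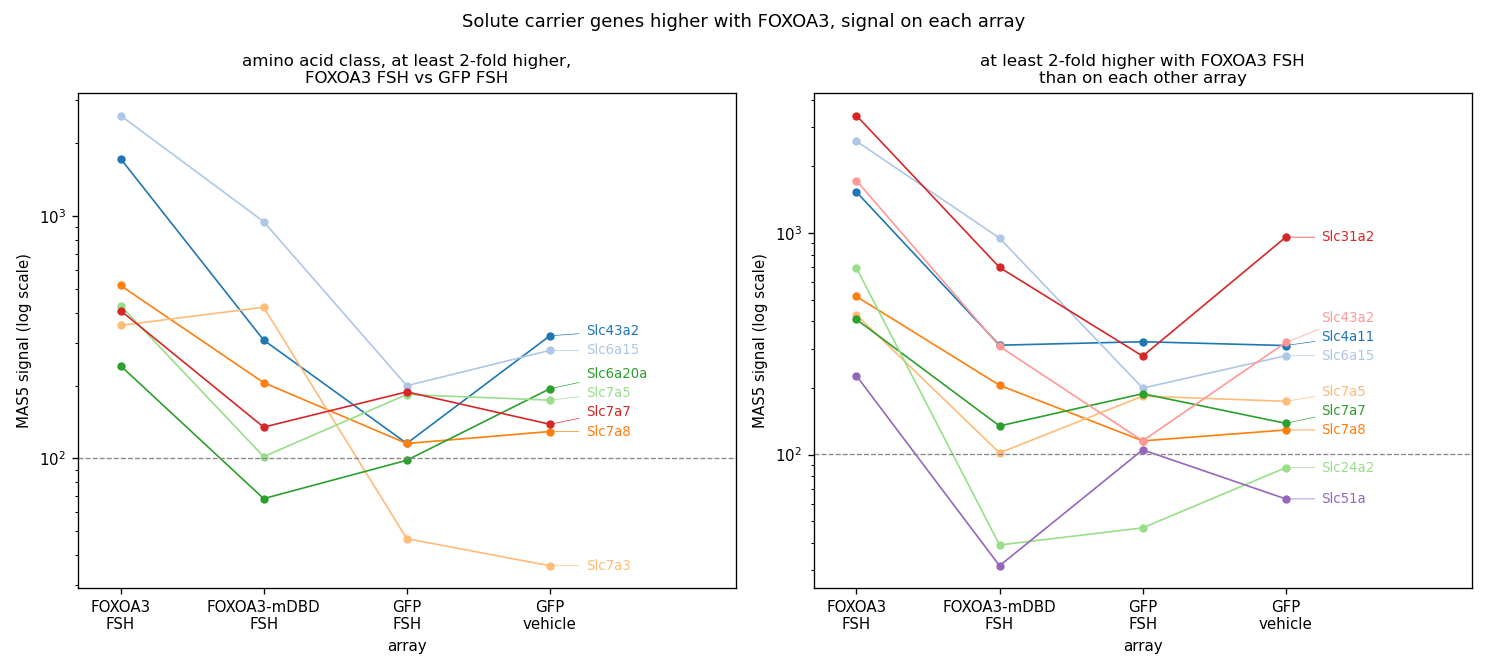
MAS5 signal (log axis) on each array for the 7 amino acid transporters at least 2-fold higher with FOXOA3 FSH than GFP FSH (left) and the 9 solute carrier genes at least 2-fold higher with FOXOA3 FSH than on each other array (right). Each point is 1 array and the dashed line is the floor; Slc43a2 stands at 1725.5 on FOXOA3 FSH and at or below 320.7 on the other 3, and levels of different genes cannot be compared.

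Slc43a2, also called LAT4, lets branched-chain and other large neutral amino acids leave the cell. It had 1725.5 on FOXOA3 FSH, 307.9 on FOXOA3-mDBD FSH, 115.4 on GFP FSH and 320.7 on GFP vehicle. FOXOA3 FSH was 15-fold above GFP FSH and 5.38-fold above GFP vehicle, and GFP FSH was the lowest array. Slc6a15, a sodium-coupled transporter of branched-chain amino acids and proline, had 2597.7 on FOXOA3 FSH, 948.8 on FOXOA3-mDBD FSH, 199.6 on GFP FSH and 279.3 on GFP vehicle. It was 13-fold higher with FOXOA3 and 4.75-fold higher with FOXOA3-mDBD than with GFP FSH, while both GFP arrays stayed under 300.

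The SLC7 genes gave smaller ratios from dimmer signals. Slc7a8, the light chain of the exchanger LAT2, had 517.2 on FOXOA3 FSH, 205.5 on FOXOA3-mDBD FSH, 115.3 on GFP FSH and 129.2 on GFP vehicle, 4.49-fold higher with FOXOA3 than with GFP FSH. Slc7a5, the light chain of LAT1, had 427.3, 101.8, 183.6 and 174.0 in that order of arrays, and Slc7a7, the light chain of y+LAT1, had 407.4, 134.7, 188.3 and 138.4. These were 2.33-fold and 2.16-fold higher with FOXOA3 than with GFP FSH, and all 3 light chains were highest on FOXOA3 FSH. Slc7a3, a transporter of cationic amino acids, had 354.0 on FOXOA3 FSH, 420.6 on FOXOA3-mDBD FSH, 46.7 on GFP FSH and 36.1 on GFP vehicle, so that both GFP arrays were under the floor. It was at least 3.52-fold higher with FOXOA3 and at least 4.19-fold higher with FOXOA3-mDBD than with GFP FSH.

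The heavy chain Slc3a2, with which the light chains Slc7a5, Slc7a6, Slc7a7 and Slc7a8 pair, stayed within 2-fold, with 2537.3 on FOXOA3 FSH, 2885.8 on FOXOA3-mDBD FSH, 2952.4 on GFP FSH and 2019.0 on GFP vehicle. The light chain Slc7a6, unlike the other 3, was lower, with 1028.2 on FOXOA3 FSH and 2232.7 on GFP FSH, 2.17-fold lower. Slc38a2, a sodium-coupled transporter of small neutral amino acids, also stayed within 2-fold, between 6961.0 and 9576.5. Among the 21 amino acid carriers as a class, 7 were higher with FOXOA3 than with GFP FSH and 1 lower, with a median of 0.46 beside 0.00 for all genes. That median was 0.19 after quantile normalization and 0.41 after centring. Each of the 7 was at or under 200 on at least 1 array, and of the 8 amino acid carriers above 200 on all 4 arrays, 0 were higher and 1 was lower. With the floor at 200, Slc7a3 and Slc6a20a had log2 ratios of 0.82 and 0.27, and after quantile normalization Slc6a20a and Slc7a7 had 0.98 and 0.89, under 2-fold. Completing the 7 was the proline transporter Slc6a20a, at 241.4 on FOXOA3 FSH and 98.3 on GFP FSH, at least 2.4-fold higher.

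Slc31a2, a low-affinity copper transporter of endosomes and lysosomes, had 3390.4 on FOXOA3 FSH, 699.4 on FOXOA3-mDBD FSH, 278.3 on GFP FSH and 958.3 on GFP vehicle. It was 12.2-fold higher with FOXOA3 than with GFP FSH and 3.54-fold higher than with GFP vehicle. Its paralogue Slc31a1, the high-affinity copper importer, had 2374.8 on FOXOA3 FSH and 3783.2 on GFP FSH by its brightest probe set, within 2-fold. The other probe sets of Slc31a1 differed in sign: 1 had 813.9 and 370.8 on the same arrays (log2 ratio of 1.13), and the others had log2 ratios of -0.59 and -0.21. Slc2a13, a proton-coupled transporter of myo-inositol, had 1409.7 on FOXOA3 FSH, 3149.6 on FOXOA3-mDBD FSH, 193.0 on GFP FSH and 256.9 on GFP vehicle, 7.30-fold higher with FOXOA3 and 16.3-fold higher with FOXOA3-mDBD. A second probe set of Slc2a13, with 411.7, 1044.0, 104.6 and 163.3, had the same order of the 2 FOXO1 vectors over both GFP arrays.

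Among ion carriers, Slc4a11, which conducts protons in the plasma membrane, had 1531.5 on FOXOA3 FSH, 311.7 on FOXOA3-mDBD FSH, 323.2 on GFP FSH and 310.6 on GFP vehicle. Its other 3 arrays lay within a narrow range, and FOXOA3 FSH was 4.74-fold above GFP FSH. The sodium-calcium exchanger Slc24a2 had 695.3 on FOXOA3 FSH and was under the floor on the other 3 arrays, at least 6.92-fold higher. A second probe set of Slc24a2 was under the floor on every array, at 37.6 on FOXOA3 FSH. Slc12a9, a relative of the cation-chloride cotransporters, was 3.68-fold higher, and Slc22a15 of the organic ion family at least 3.31-fold. Ferroportin Slc40a1, low on GFP FSH, was 3.07-fold higher with FOXOA3.

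The lower ratios share the GFP FSH array with the hormone comparison. Slc25a30 was 3.02-fold lower with FOXOA3, Slc25a28 2.95-fold, Slc16a6 2.87-fold, Slc22a23 2.76-fold, the mitochondrial dicarboxylate carrier Slc25a10 2.75-fold, Slc44a1 2.63-fold and Slc41a3 2.62-fold. Slc41a2, another magnesium transporter, was 2.11-fold lower and Slc25a5 2.02-fold. The other readable probe sets of Slc44a1 (log2 ratios of 0.24 and 0.01) and Slc41a2 (0.39) were not lower. Of the 30 mitochondrial carriers, 4 were lower and 1 higher, the branched-chain amino acid carrier Slc25a44 at 2.34-fold, with a median of -0.23 beside 0.00. This comparison crosses the spike signal of the arrays, and the theca and stroma markers summed to 24116.8 on FOXOA3 FSH and 2101.2 on GFP FSH, and their part in these ratios was not tested.

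FOXOA3 FSH against GFP vehicle compares arrays of like spike signal that differ in both hormone and vector. Their actin 3'/5' ratios also differed, at 9.79 and 5.15, and the part of this was not tested. Here 21 genes (14.1%) were at least 2-fold higher, beside 5.85% of all genes, and 8 (5.37%) were lower, beside 4.40%. The median was 0.07, and 0.00 for all genes. Among genes above 200 on all 4 arrays, 6 of 103 (5.83%) were higher beside 3.17% and 5 (4.85%) lower beside 2.90%. The largest ratios were those of Slc6a15 (9.30-fold), Slc24a2 (at least 6.92-fold), Slc2a13 (5.49-fold), Slc43a2 (5.38-fold), Slc4a11 (4.93-fold), Slc39a8 (4.75-fold) and Slc7a8 (4.00-fold). Slc7a3 was at least 3.52-fold higher and Slc7a7 2.94-fold, so 7 of 21 amino acid carriers were higher and 0 lower, and the median was 0.33. Of the 8 above 200 on all 4 arrays, 1 was higher. On the low side, Slc8a1 was 3.50-fold lower, Slc24a3 3.10-fold, Slc24a4 2.90-fold and Slc12a2 2.23-fold. The SLC66 genes Slc66a3 and Slc66a2 were 3.79-fold and 2.61-fold lower.

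Taking the 4 arrays at once, 9 of the 149 genes (6.04%) were at least 2-fold higher on FOXOA3 FSH than on each of the other 3 arrays, beside 1.41% of all genes. They were Slc4a11, Slc6a15, Slc7a5, Slc7a7, Slc7a8, Slc24a2, Slc31a2, Slc43a2 and Slc51a, of which 5 belong to the amino acid class. Of the 9, Slc7a5, Slc7a7, Slc24a2 and Slc51a were above 200 on FOXOA3 FSH alone, so that the high signal there is what admitted them. Among genes above 200 on all 4 arrays the pattern held for 2 of 103 (1.94%), Slc4a11 and Slc31a2, beside 0.327% of all such genes, and none was an amino acid carrier. Slc51a, a subunit of the organic solute transporter of bile acids and steroids, had only 226.7 on FOXOA3 FSH. No solute carrier was at least 2-fold lower on FOXOA3 FSH than on each other array, and of all genes 0.0333% were.

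The DNA-binding mutant was compared with the control vector through FOXOA3-mDBD FSH and GFP FSH, arrays of like spike signal. The bicarbonate, phosphate and zinc transporters Slc4a4, Slc20a2, Slc39a8 and Slc39a6 and the manganese exporter Slc30a10 were among the highest, while most other SLC39 genes, the folate and heme carriers and the vitamin C transporter were lower. Of the 149 genes, 24 (16.1%) were at least 2-fold higher, beside 13.5% of all genes, and 40 (26.8%) were lower, beside 20.7%. After centring the counts were 31 higher, beside 15.8% of all genes, and 35 lower, beside 17.5%. The median was -0.45, and -0.19 for all genes. Among the genes above 200 on all 4 arrays, 26 of 103 (25.2%) were lower beside 18.2%, and 14 (13.6%) were higher beside 10.8%.

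**Figure D3:**
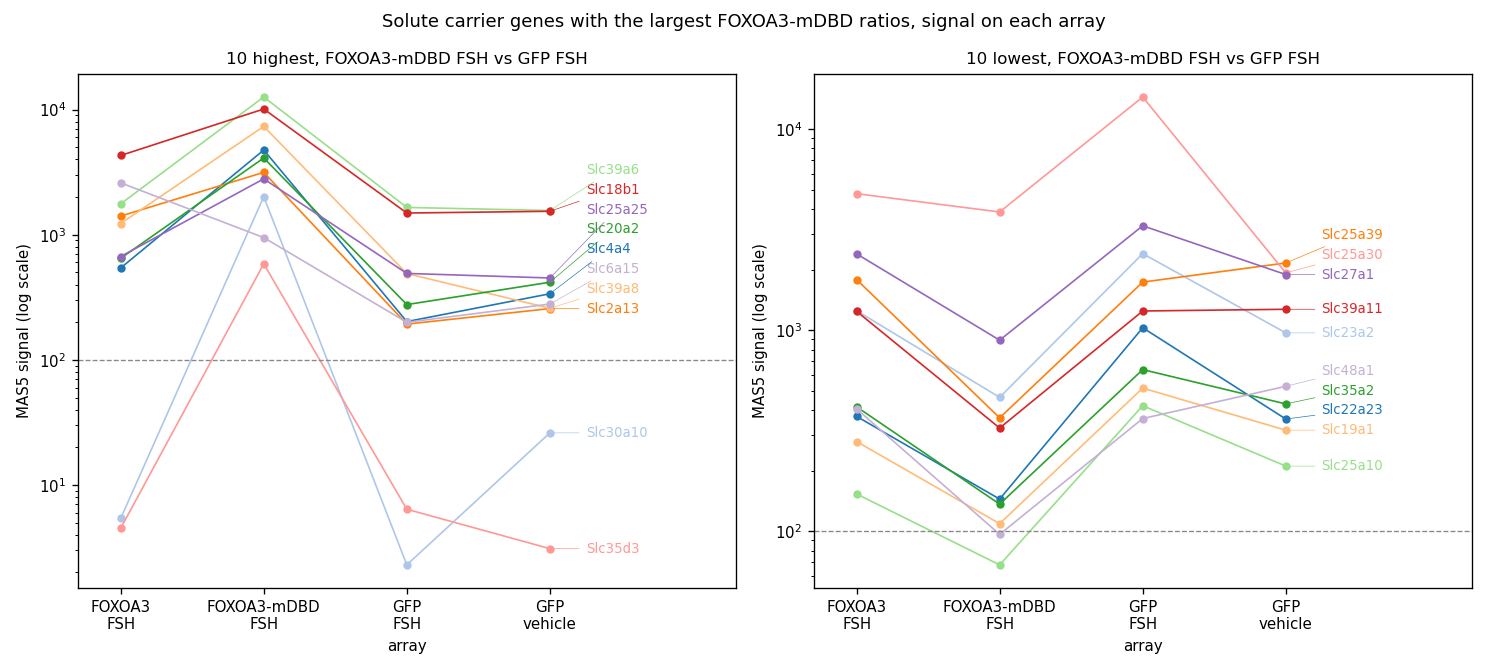
MAS5 signal (log axis) on each array for the 10 solute carrier genes with the highest (left) and the 10 with the lowest (right) ratio of FOXOA3-mDBD FSH to GFP FSH. Each point is 1 array and the dashed line is the floor; Slc39a6 stands at 12604.4 on FOXOA3-mDBD FSH and between 1561.1 and 1765.2 on the other 3, and levels of different genes cannot be compared.

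Slc4a4, an electrogenic sodium bicarbonate cotransporter, had 542.0 on FOXOA3 FSH, 4751.7 on FOXOA3-mDBD FSH, 202.2 on GFP FSH and 337.4 on GFP vehicle. FOXOA3-mDBD FSH was 23.5-fold above GFP FSH. A second probe set of Slc4a4 had 567.8 on FOXOA3-mDBD FSH and was under the floor on the other 3 arrays. Slc20a2, a sodium-phosphate cotransporter, had 647.6 on FOXOA3 FSH, 4104.2 on FOXOA3-mDBD FSH, 276.5 on GFP FSH and 417.1 on GFP vehicle, 14.8-fold above GFP FSH. Its relative Slc20a1 had 4728.9 on FOXOA3-mDBD FSH and 4338.1 on GFP FSH, within 2-fold.

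Metal carriers differed both ways. Slc39a8, which imports zinc, manganese and other divalent metals, had 1229.1 on FOXOA3 FSH, 7338.8 on FOXOA3-mDBD FSH, 489.5 on GFP FSH and 258.5 on GFP vehicle, 15-fold above GFP FSH with the mutant. Slc39a6, a zinc importer, had 1765.2 on FOXOA3 FSH, 12604.4 on FOXOA3-mDBD FSH, 1652.1 on GFP FSH and 1561.1 on GFP vehicle, and was 7.63-fold higher with the mutant. Both other probe sets of Slc39a6 were also highest on that array, at 1261.3 and 554.4. Slc30a10, which exports manganese, had 2013.8 on FOXOA3-mDBD FSH and 2.3 to 26.1 on the other 3 arrays, at least 20-fold higher.

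Most other SLC39 genes were lower. Slc39a11 had 325.7 on FOXOA3-mDBD FSH and 1244.3 on GFP FSH, 3.82-fold lower. Slc39a7, which releases zinc from the endoplasmic reticulum, was 3.29-fold lower, Slc39a13 of the Golgi 2.96-fold, Slc39a1 2.40-fold and Slc39a3 2.34-fold. Slc39a10, at 5356.4 on FOXOA3-mDBD FSH and 9506.1 on GFP FSH, stayed within 2-fold. In the SLC39 family 2 of 9 genes were thus higher and 5 lower, and in the whole metal class of 23 genes the counts were 4 higher against 6 lower around a median of -0.02, which was 0.11 after centring. Mt2A, a metallothionein that binds zinc and copper, had 922.7 on FOXOA3-mDBD FSH and 4379.0 on GFP FSH, 4.75-fold lower, and the zinc-sensing factor Mtf1 stayed within 2-fold at 600.0 and 464.6.

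Copper importer Slc31a1 depended on the probe set. The brightest had 7249.7 on FOXOA3-mDBD FSH and 3783.2 on GFP FSH, 1.92-fold higher and so not counted, while the 3 others had log2 ratios of 4.22, 2.31 and 1.92. Among organelle carriers, Slc18b1, a vesicular carrier of polyamines, had 4296.5 on FOXOA3 FSH, 10103.4 on FOXOA3-mDBD FSH, 1490.6 on GFP FSH and 1539.0 on GFP vehicle, 6.78-fold above GFP FSH. Sialin, Slc17a5, which exports sialic acid from lysosomes, was 3.97-fold higher. Slc25a25, a calcium-regulated mitochondrial carrier of ATP-Mg and the gene whose window holds the cyclic AMP letters, had 669.4 on FOXOA3 FSH, 2795.7 on FOXOA3-mDBD FSH, 490.6 on GFP FSH and 451.1 on GFP vehicle. It was 5.70-fold higher with the mutant, and 1.09-fold higher with FSH than with vehicle.

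Among the lower genes, Slc22a23 had 144.4 on FOXOA3-mDBD FSH and 1027.0 on GFP FSH, 7.11-fold lower, and the vitamin C transporter Slc23a2 was 5.19-fold lower. Slc25a39, needed for glutathione import into mitochondria, had 1783.7 on FOXOA3 FSH, 366.0 on FOXOA3-mDBD FSH, 1732.2 on GFP FSH and 2156.8 on GFP vehicle. Only the mutant array was low, 4.73-fold below GFP FSH. The folate carrier Slc19a1 was 4.72-fold lower, the Golgi transporter of UDP-galactose Slc35a2 4.67-fold, the fatty acid transport protein Slc27a1 3.70-fold and the heme transporter Slc48a1 at least 3.61-fold.

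By class, 0 of 7 vitamin, folate and heme carriers were higher and 3 were lower, with a median of -0.96. The 7 organic ion, bile acid and drug carriers had 0 higher and 3 lower, with a median of -0.98. Of the amino acid carriers 3 of 21 were higher, namely Slc6a15, Slc7a3 and Slc43a2, and 6 were lower, led by Slc38a10 at 3.45-fold, with a median of -0.48. The 30 SLC25 genes, classed as mitochondrial carriers by family number alone, had 3 higher and 7 lower with a median of -0.37. Nucleoside and nucleotide sugar carriers had 4 of 20 higher and 5 lower with a median of -0.49. All these medians stand beside -0.19 for all genes, and the counts beside 13.5% higher and 20.7% lower. Among genes above 200 on all 4 arrays, 1 of 4 vitamin, folate and heme carriers and 2 of 3 organic ion carriers were lower. So were 3 of 8 amino acid, 4 of 23 mitochondrial and 4 of 15 nucleoside and nucleotide sugar carriers, beside 18.2% of all such genes. Of these same genes, 3 mitochondrial carriers and 1 nucleoside or nucleotide sugar carrier were higher. Granulosa markers had a summed signal of 46672 on FOXOA3-mDBD FSH and 127492 on GFP FSH, and their part in the ratios was not tested.

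**Figure D4:**
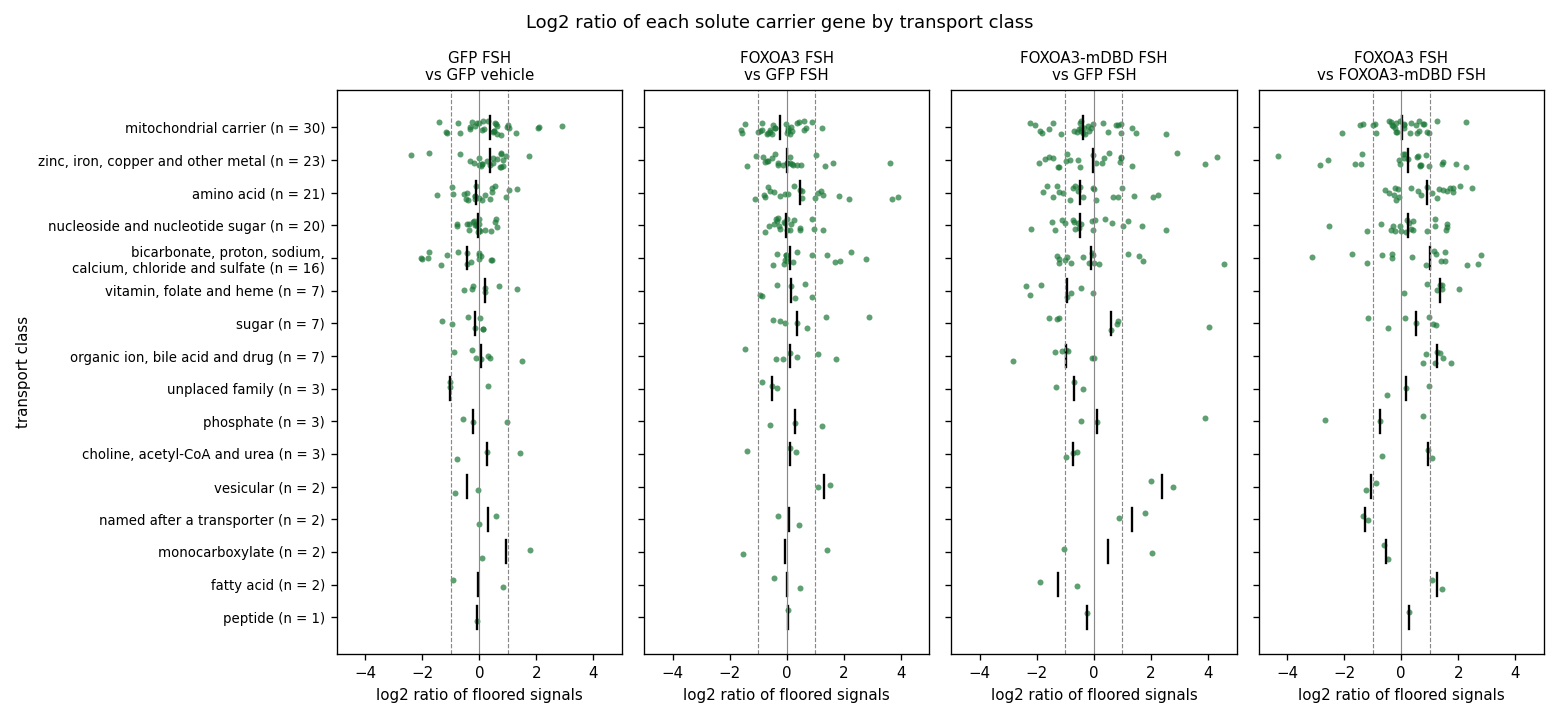
Log2 ratio of floored signals of each of the 149 genes in 4 comparisons, by transport class. Each point is 1 gene, black bars are class medians, dashed lines mark 2-fold, and the amino acid class has medians of -0.13 (0.03 after quantile normalization), 0.46, -0.48 and 0.91 from left to right.

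FOXOA3 FSH against FOXOA3-mDBD FSH sets the active protein against its mutant, across the spike signal of the arrays. Of the amino acid carriers 10 of 21, the sodium-calcium exchangers Slc24a2, Slc24a3 and Slc24a4 and the copper carrier Slc31a2 were higher with the active form, and Slc4a4, Slc20a2, Slc39a6, Slc39a8 and Slc30a10 were lower. Another sodium-calcium exchanger, Slc8a1, was 2.31-fold lower. The zinc family genes Slc39a11, Slc39a3 and Slc39a13 were higher, at 3.81-fold, 2.73-fold and 2.71-fold. In all 44 genes (29.5%) were at least 2-fold higher, beside 21.2% of all genes, and 19 (12.8%) were lower, beside 10.3%. After centring the counts were 40 higher, beside 15.6%, and 23 lower, beside 13.9%. The median was 0.38, and 0.22 for all genes. Above 200 on all 4 arrays, 23 of 103 genes (22.3%) were higher beside 15.7%, and 14 were lower beside 8.81%. Of the 21 amino acid carriers 10 were higher and 0 lower, and the median was 0.91, but 2 of the 10 were among the 8 above 200 on all 4 arrays. The largest were Slc43a2 at 5.6-fold and Slc7a5 at 4.20-fold. Slc38a10 followed at 3.55-fold.

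Of 16 carriers of bicarbonate and other ions, 8 were higher and 3 lower, beside 21.2% and 10.3% of all genes. Of the 9 above 200 on all 4 arrays, 3 were higher and 2 lower. Slc24a2 was above 200 on FOXOA3 FSH alone. Slc24a2 was at least 6.92-fold higher, Slc12a9 at least 6.48-fold and Slc4a11 4.91-fold, and Slc4a4 was 8.77-fold lower. The citrate transporter Slc13a5, with signals of 55.1 (FOXOA3 FSH) and 329.3 (FOXOA3-mDBD FSH), was at least 3.28-fold lower. Copper transporter Slc31a2 was 4.85-fold higher and Slc31a1 3.05-fold lower, which is opposite directions for the 2 copper carriers. Slc30a10 was at least 20-fold lower, Slc39a6 7.14-fold, Slc20a2 6.34-fold and Slc39a8 5.97-fold. Theca and stroma markers had sums of 24116.8 (FOXOA3 FSH) and 1393.7 (FOXOA3-mDBD FSH), and their part was not tested.

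**Figure D5:**
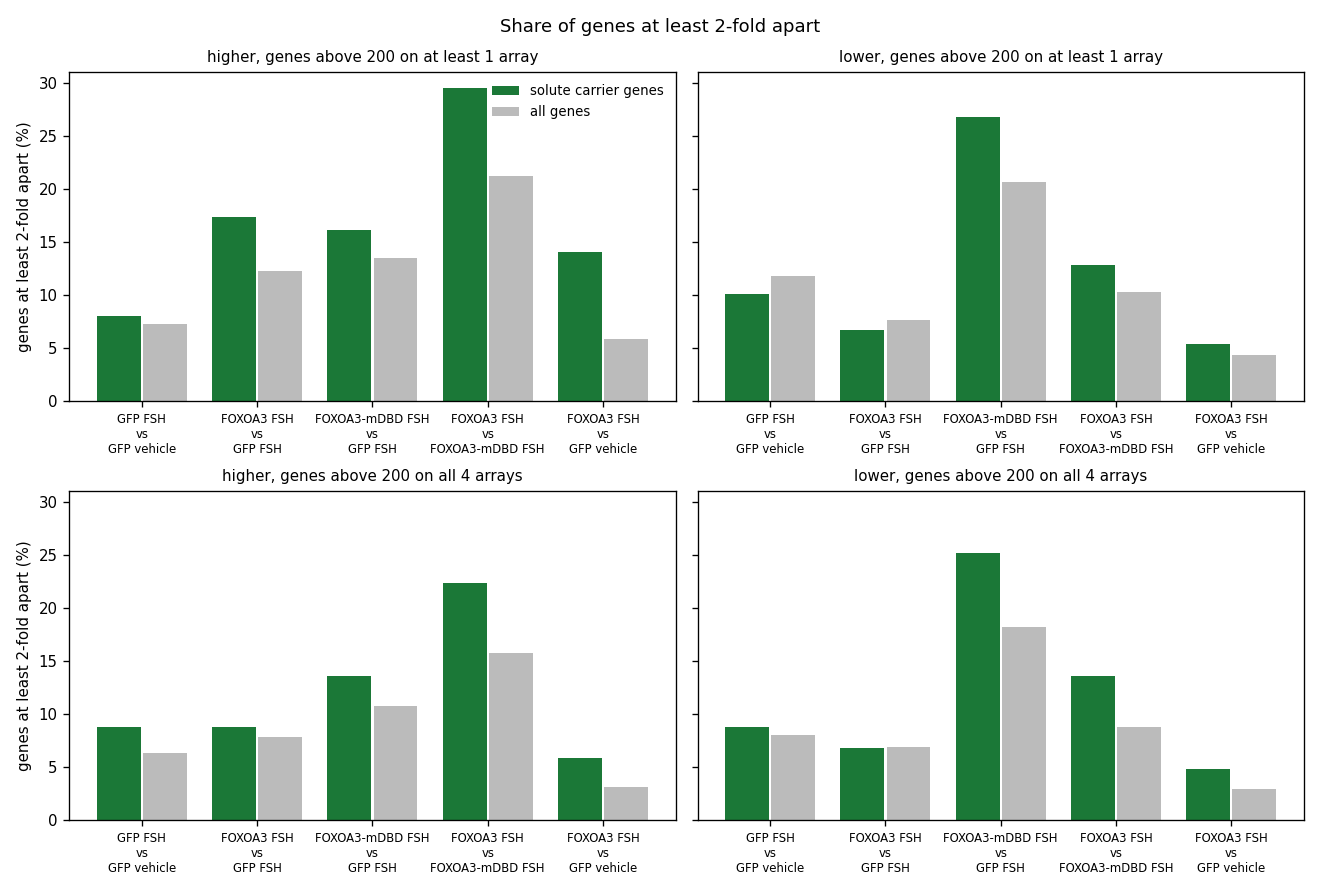
Percent of genes at least 2-fold higher (left) or lower (right) in each comparison, for solute carrier genes (green) and all named genes (grey), among genes above 200 on at least 1 array (top) and on all 4 arrays (bottom). The largest green bars are 29.5% higher in FOXOA3 FSH against FOXOA3-mDBD FSH and 26.8% lower in FOXOA3-mDBD FSH against GFP FSH, beside grey bars of 21.2% and 20.7%.

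On the mutant array, 13 of the 149 genes (8.72%) were at least 2-fold higher than on each other array, beside 6.65% of all genes, and 22 (14.8%) were at least 2-fold lower, beside 9.30%. Of the 13, Slc13a5, Slc28a2, Slc30a10 and Slc35d3 were above 200 on that array alone, so that the high signal there admitted them. Among genes above 200 on all 4 arrays, 8 of 103 (7.77%) were higher, beside 4.79%, and 15 (14.6%) were lower, beside 7.57%. On GFP FSH 4 genes (2.68%) were 2-fold higher than on each other array, beside 3.07% of all genes, namely Slc16a6, Slc22a23, Slc25a28 and Slc25a30, and 2 (1.34%) were lower, beside 2.07%, namely Slc31a2 and Slc43a2. On GFP vehicle 5 genes (3.36%) were higher, beside 2.17%, namely Slc24a3, Slc24a4, Slc25a23, Slc66a2 and Slc66a3, and 1 (0.671%) was lower, Slc25a30, beside 1.07%. Slc16a6 was likewise above 200 on GFP FSH alone, and Slc25a23 on GFP vehicle alone. In all, 49 genes (32.9%) stayed within 2-fold in all 5 comparisons by their brightest probe sets, beside 43.8% of all genes. Another probe set passed 2-fold for some of them, such as Slc33a1 and Slc35a1 (log2 ratios of 1.07 and -1.21 in FOXOA3-mDBD FSH against GFP FSH). Examples were the lysosomal peptide transporter Slc15a4, between 576.9 and 719.3, the sodium bicarbonate cotransporter Slc4a7, between 1654.6 and 2115.0, and the glucose-6-phosphate transporter Slc37a4, between 645.6 and 1088.4.

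Another 69 probe sets read 50 of the 149 genes on the same arrays and were not used to choose the values above. They read the same RNA and are not replicates. In GFP FSH against GFP vehicle, 9 of 10 readable ones had the same sign as the counted gene, and 3 were also 2-fold apart. In FOXOA3 FSH against GFP FSH 10 of 13 had the same sign and 6 were 2-fold apart, and in FOXOA3-mDBD FSH against GFP FSH 14 of 15 had the same sign and 10 were 2-fold apart. For FOXOA3 FSH against FOXOA3-mDBD FSH the numbers were 17 of 17 and 13, and for FOXOA3 FSH against GFP vehicle 7 of 7 and 4. Those of opposite sign belonged to Slc44a1, Slc41a2 and Slc6a8, and none was 2-fold apart in the opposite direction in these 5 comparisons. This covers counted genes only, and genes not counted could conflict past 2-fold. In FOXOA3-mDBD FSH against GFP FSH, Slc25a36 had a log2 ratio of -0.45 by its brightest probe set and 1.92 by another. Slc33a1 had -0.61 and 1.07 there.

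The 3 excepted genes had these values. The glucose transporter Slc2a1 had 666.4 on FOXOA3 FSH, 501.6 on FOXOA3-mDBD FSH, 1096.6 on GFP FSH and 476.7 on GFP vehicle, the lactate transporter Slc16a1 had 3044.2, 2191.2, 5135.8 and 2141.3, and the cystine exchanger light chain Slc7a11 had 568.4, 700.6, 471.2 and 102.8 in that order of arrays. All 3 were higher on GFP FSH than on GFP vehicle, by 2.3-fold, 2.4-fold and 4.58-fold. Slc2a1 and Slc16a1 were 2.19-fold and 2.34-fold lower on FOXOA3-mDBD FSH than on GFP FSH. Slc7a11 was 5.53-fold higher on FOXOA3 FSH than on GFP vehicle. The solute carrier counts above do not include these genes.

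A list of 33 other transport genes, chosen for their roles beside solute carriers, had 16 members above 200 on at least 1 array. With FSH against vehicle, 3 of 16 were higher and 2 lower, beside 7.27% and 11.8% of all genes. Mt2A at 3.66-fold, Tfrc at 3.37-fold and the sodium pump subunit Atp1b1 at 2.55-fold were higher. The organic anion transporter Slco3a1 at 3.15-fold and the pyrophosphate exporter Ankh at 2.39-fold were lower. With FOXOA3 against GFP FSH, 2 of 16 were higher and 2 lower, beside 12.3% and 7.71% of all genes. Embigin (Emb), a chaperone of monocarboxylate transporters, at 2.90-fold and Ankh at 2.79-fold were higher, and Atp1b1 at 2.78-fold and Tfrc at 2.39-fold were lower. With FOXOA3-mDBD against GFP FSH, 3 of 16 were higher and 6 lower, beside 13.5% and 20.7% of all genes. The higher ones were Xpr1, a phosphate exporter, with 1328.8 on FOXOA3-mDBD FSH and 291.4 on GFP FSH (4.56-fold), Mpc2, a subunit of the mitochondrial pyruvate carrier, at 3.68-fold, and Slco5a1 at 2.22-fold. Atp1b1 was the lowest, with 1146.0 on FOXOA3-mDBD FSH and 7854.9 on GFP FSH, 6.85-fold lower, and basigin (Bsg), the other chaperone of monocarboxylate transporters, was 3.52-fold lower. Also lower were Mt2A at 4.75-fold, Slco3a1 at 3.80-fold, Atp1b2 at 2.75-fold and Tfrc at 2.30-fold.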

How the data were processed

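Gene expression was measured on 4 rat arrays, 1 per group. The deposited values are linear intensity values that the authors made with MAS5, which the submitters' processing notes name without settings. Such scaling gives all arrays 1 trimmed mean and so hides differences in total RNA, and dim probe sets vary most. No detection calls were used. Of 31099 probe sets, 20832 had exactly 1 symbol in the platform annotation. No scaling was added; values were floored at 100.5, log2 was taken, and a fold of 2 was counted with Python 3.11.15, numpy 2.4.6 and pandas 2.3.3. The steps were tested on simulated data. With 1 array per group there is no test, and the number of arrays limits precision.

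The members and lists were chosen with earlier results of these data known. Genes could be named if among the 10 highest or 10 lowest of a comparison, the 3 brightest of a transport class, near the limit of 200, or on the list of other transport genes. Slc25a1, Slc25a44, Slc8b1, Slc6a20a, Slc39a1, Slc39a3, Slc39a7 and Slc39a13 fall outside that and were named after their values were seen, and so were the other probe sets. Slc25a33 and Slc38a6 are named for a motif match, Slc6a8 for a probe set of opposite sign, and Slc29a3 and Slc25a36 for another probe set past 2-fold. Transport classes follow family numbers. The alternatives were 2 other floors, quantile normalization, centring, the mean of probe sets and a stricter limit on signal.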

Additional observations from a re-analysis of the deposited data

How the results depend on the processing

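Of 60 counts of genes at least 2-fold apart under 6 alternatives, 48 stayed within 1.5 times the reported count; for the rest, the cause was not tested unless fewer genes entered. With genes above 200 on all 4 arrays only, 103 genes entered, and the counts became 9 lower in GFP FSH against GFP vehicle, 9 higher in FOXOA3 FSH against GFP FSH, 14 higher and 26 lower in FOXOA3-mDBD FSH against GFP FSH, 23 higher in FOXOA3 FSH against FOXOA3-mDBD FSH, and 6 higher and 5 lower in FOXOA3 FSH against GFP vehicle. With the floor at 200, 17 were higher in FOXOA3 FSH against GFP FSH and 13 in FOXOA3 FSH against GFP vehicle. With the mean of all probe sets, 8 were lower in GFP FSH against GFP vehicle, 5 in FOXOA3 FSH against GFP FSH and 4 in FOXOA3 FSH against GFP vehicle.

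Centring moved the median of all genes from -0.19 to -0.06 in FOXOA3-mDBD FSH against GFP FSH and from 0.22 to 0.04 in FOXOA3 FSH against FOXOA3-mDBD FSH. The median of the solute carriers became -0.32 and 0.19 there. No gene counted changed sign under the 2 other floors, quantile normalization or centring. Of the 26 genes higher in FOXOA3 FSH against GFP FSH, 14 passed 2-fold under all 4 of these, and of the 40 lower in FOXOA3-mDBD FSH against GFP FSH, 27 did. No paired analysis was possible because each group has 1 array. Dim signals limit the folds of genes near the floor, such as Slc7a3 and Slc24a2.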
